A study of Mus musculus with 6 samples.

Results

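The 73 genes described here carry the names of proteins of the mouse mitochondrial ribosome. They were chosen by name, as every gene of the array whose symbol starts with Mrpl or Mrps followed by a number, out of 19496 gene names. Mrpl genes, 44 in number, are named for the large subunit and Mrps genes, 29 in number, for the small subunit. Each gene was read by 1 probe, the brightest over the 6 arrays. That choice used signal only for Mrpl40, the single member with more than 1 probe, and its 2 probes gave log2 fold changes of 0.85 and 0.83 in shLoxl2 cells and 0.73 and 0.86 in shSnail cells.

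The mitochondrial ribosome translates the messenger RNAs of mitochondrial DNA, which in mammals encode subunits of the respiratory chain and of ATP synthase. Its RNAs come from mitochondrial DNA, whereas all its proteins are encoded in the nucleus, made in the cytosol and imported. The small subunit reads the messenger RNA, and the large subunit joins the amino acids. Some of the proteins have a counterpart in the bacterial ribosome and others were added in the mitochondrial lineage. Promoters of many nuclear genes for mitochondrial proteins are known to carry sites for NRF1, for the ETS-family factor GABP and for YY1.

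RNA came from mouse cells that the series title calls HACA, and the labels say nothing more of their origin. The shLoxl2 cells carried a short hairpin RNA against Loxl2, a lysyl oxidase-like enzyme, and the shSnail cells a hairpin against Snail, the repressor encoded by Snai1. The shGFP cells carried a hairpin against GFP, so cells of all groups carried a hairpin. There were 4 shLoxl2 arrays, 2 for each of 2 replicate numbers, which carried the silenced RNA in Cy3 on one and in Cy5 on the other. Of shSnail there were 2 arrays, and on these Cy5 labelled the silenced RNA. Each array held shGFP RNA in its other channel. Each silenced group therefore had n = 2, and shGFP counted as 1 control sample whose own spread the tests leave out. The labels do not say whether samples came from separate cultures or whether a cell line was 1 clone, so the p-values measure only the spread between these samples, which may be technical.

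Of the 73 members, 72 were tested among 19752 probes, all 44 of the large subunit and 28 of the small. Mrps18b was not tested, since its probe was well above background in only 1 of 12 channels. Of the tested members, 66 were well above background in all 12 channels, and no member probe was saturated. The silencing could not be checked on these arrays: the Loxl2 probe had a log2 fold change of 0.11 in shLoxl2 cells (adjusted p = 0.59) but was well above background in only 2 of the 4 shLoxl2 channels and 1 of the 4 shGFP channels of those arrays, and the Snai1 probe was too dim on the shSnail arrays, where neither channel was well above background. Of 7 keratinocyte or epithelial markers, Krt5, Krt14, Krt18 and Trp63 were well above background in all 12 channels, Epcam in 8, and Krt8 and Cdh1 in 6 each. Trp63 fell in both silenced lines, at -1.15 in shLoxl2 and -1.71 in shSnail, Krt14 fell at -0.82 in shSnail cells, and Epcam rose at 1.51 in shLoxl2 cells, where 2 of 4 shGFP channels had it well above background. Krt8 in shSnail cells and Cdh1 in shLoxl2 cells also passed upward, with 0 of 2 and 1 of 4 shGFP channels well above background. The summed intensity of the 7 lay between 117735 and 155896 in shLoxl2 channels, against 92063 to 209441 in shGFP channels of those arrays, and at 81386 and 90682 in shSnail channels, against 129832 and 155695 in shGFP.

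Of 4 fibroblast markers, Pdgfra was well above background in all 12 channels, Col1a2 in 10, Dcn in 7 and Col1a1 in 6. Pdgfra fell at -0.82 in shLoxl2 cells and -1.18 in shSnail cells, and the sum of the 4 lay between 615 and 1001 in shLoxl2 channels, against 901 to 1255 in shGFP, and at 644 and 731 in shSnail channels, against 775 and 788 in shGFP. Of 3 leukocyte markers, the defining Ptprc was well above background in 1 channel, while Cd68 and Cd3e were so in all 12 and Cd68 rose at 0.66 in shLoxl2 cells. Their sum lay between 1390 and 1926 in shLoxl2 channels, against 992 to 1739 in shGFP, and at 1716 and 1796 in shSnail channels, against 1551 and 1728 in shGFP. Of 3 endothelial markers, Pecam1 was well above background in 1 channel, Cdh5 in 8 and Kdr in 6, and none passed. The part of these marker differences in the results was not tested. In such bulk samples fewer cells of a type and less RNA per cell cannot be told apart.

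Promoters of 4 members are shown because these genes gave the largest rise or fall of a comparison, Mrpl34 and Mrpl43 upward, Mrpl50 downward, and Mrpl53 with opposite changes in the silenced lines. Each stretch is the 250 bases before the annotated start, 5′ to 3′ on the gene's own strand, from RefSeq (GRCm38.p6). Capitals mark matches to any of 4 motifs searched on both strands, which were GCGCANGCG for NRF1, CCGGAAG for the ETS family, AAGATGGCG for YY1 and the E-box CACCTG that Snail is known to bind.
Mrpl34, chr8:71464676-71464925, plus strand: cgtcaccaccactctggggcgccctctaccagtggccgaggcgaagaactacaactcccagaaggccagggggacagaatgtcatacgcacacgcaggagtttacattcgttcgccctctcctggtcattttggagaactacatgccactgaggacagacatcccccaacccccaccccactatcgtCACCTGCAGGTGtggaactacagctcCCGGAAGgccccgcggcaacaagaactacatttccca
Mrpl43, chr19:45006443-45006692, minus strand: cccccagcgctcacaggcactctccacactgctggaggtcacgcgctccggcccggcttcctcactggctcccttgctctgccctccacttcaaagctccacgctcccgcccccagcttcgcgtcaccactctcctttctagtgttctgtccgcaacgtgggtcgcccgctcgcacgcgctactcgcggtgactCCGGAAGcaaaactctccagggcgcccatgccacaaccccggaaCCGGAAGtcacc
Mrpl50, chr4:49521084-49521333, minus strand: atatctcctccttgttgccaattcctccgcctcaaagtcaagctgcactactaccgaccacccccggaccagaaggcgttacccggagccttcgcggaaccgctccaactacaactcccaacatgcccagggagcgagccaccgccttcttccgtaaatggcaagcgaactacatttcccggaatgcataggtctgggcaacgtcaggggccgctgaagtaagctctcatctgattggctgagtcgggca
Mrpl53, chr6:83108858-83109107, plus strand: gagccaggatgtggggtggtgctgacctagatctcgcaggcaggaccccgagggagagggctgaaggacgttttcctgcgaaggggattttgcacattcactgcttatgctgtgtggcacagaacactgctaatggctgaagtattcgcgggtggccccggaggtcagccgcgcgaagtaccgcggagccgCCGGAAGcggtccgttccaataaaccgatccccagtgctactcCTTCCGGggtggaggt

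The Mrpl34 stretch held 2 adjoining E-box matches, on opposite strands, which begin 63 and 57 bases before the start, and an ETS match at 37. The Mrpl43 stretch held ETS matches at 56 and 12 bases before the start, and the Mrpl53 stretch held them at 59 and 16. The Mrpl50 stretch held none of the 4 motifs. These letters describe the window and do not show that a factor binds there.

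Across the family, 65 members had a promoter in the RefSeq table, read here as 300 bases, 250 before and 50 after the start. The ETS motif was in 23 of the 65 (35.4%), against 12.9% of 17492 protein-coding genes. The NRF1 motif was in 15 (23.1%), against 9.63%, and the YY1 motif in 7 (10.8%), against 2.14%. The Snail E-box was in 9 (13.8%), against 22.1% of all coding genes. Of those 9, Mrpl2, Mrpl16, Mrpl21, Mrpl27, Mrpl34, Mrpl46, Mrpl55 and Mrps18c rose in shSnail cells by the test described below, and Mrps18a did not pass. As a share, 8 of the 32 promoters of members that rose (25%) held the E-box, near the 22.1% of all coding genes. Of the other 33, which include the untested Mrps18b, 1 (3.03%) held it. The difference was not tested. The ETS motif was in 15 of the 32 and 8 of the other 33, and the NRF1 motif in 5 and 10.

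The first comparison asks how the members differed in shLoxl2 cells from shGFP cells. Members moved in both directions: 14 rose and 8 fell among 72, and 50 did not pass the test. Of all tested probes, 8.08% rose and 5.85% fell. The median log2 fold change was 0.08 over the members and -0.01 over all probes, and members ran from -0.96 to 1.58. The large subunit had 9 rises and 6 falls of 44, and the small subunit 5 rises and 2 falls of 28. Their medians were 0.11 and 0.08. The SD over members was 0.53, against 0.45 over all probes.

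Mrpl43, a large-subunit protein of the mitochondrial lineage, had the largest rise. Its probe (chromosome 19, 45058797 to 45058856, mm8) had intensities of 34174, 38702, 17414 and 45778 in the shLoxl2 channels, against 12214, 10783, 7116 and 14156 in the shGFP channels of the same arrays. The log2 ratios were 1.48 and 1.84 for replicate 1, with shLoxl2 RNA in Cy3 and Cy5, and 1.29 and 1.69 for replicate 2. All 4 arrays lay above 0, and the fitted change was 1.58 (SE 0.13, n = 2, limma adjusted p = 0.00237), or 2.99-fold higher.

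Mrpl34, which has a bacterial counterpart, had log2 ratios of 1.85, 1.53, 0.99 and 1.31 on the 4 arrays in the same order. Its change was 1.42 (SE 0.15, limma adjusted p = 0.00515). Both arrays of replicate 1 were higher than both of replicate 2. Mrpl14, a protein of the face where the subunits join, followed the same order of replicates, with ratios of 1.59, 1.35, 0.95 and 1.01 and a change of 1.23 (SE 0.15, limma adjusted p = 0.00619). Mrpl40 rose by 0.85 and Mrpl18 by 0.79. The other 4 rises of the large subunit, Mrpl11, Mrpl12, Mrpl28 and Mrpl46, lay between 0.57 and 0.69. Mrpl12 is a protein of the ribosomal stalk.

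Among small-subunit members Mrps17, which has a bacterial counterpart, rose most. Its probe (chromosome 5, 130030565 to 130030624, mm8) had log2 ratios of 0.95, 0.97, 1.06 and 1.06, and the arrays differed little. The change was 1.01 (SE 0.11, limma adjusted p = 0.00544). Mrps36 rose by 0.98, Mrps21 by 0.93, Mrps23 by 0.89 and Mrps12, a protein of the decoding centre, by 0.82. Mrps36 carries a ribosomal name but is now known as a part of the 2-oxoglutarate dehydrogenase complex.

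Mrpl50 (chromosome 4, 49533830 to 49533889, mm8), of the mitochondrial lineage, had the largest fall. Its log2 ratios were -1.05, -1.01, -1.07 and -0.73, below 0 on all 4 arrays, and its change was -0.96 (SE 0.12, limma adjusted p = 0.00712). Mrpl53, also of that lineage, had ratios of -0.64, -0.85, -0.81 and -1.03 and a change of -0.83 (SE 0.11, limma adjusted p = 0.00862). Mrpl32, whose precursor is matured by a mitochondrial protease, fell by 0.79, Mrpl13 by 0.61, Mrpl9 by 0.59 and Mrpl45 by 0.45. In the small subunit Mrps9 fell by 0.70 and Mrps18c by 0.62, each below 0 on all 4 arrays. The tests shared their spread with the shSnail values. Without shLoxl2 replicate 1 the median over members was 0.05 in place of 0.08, and fewer members and fewer of all probes passed.

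**Figure D1:**
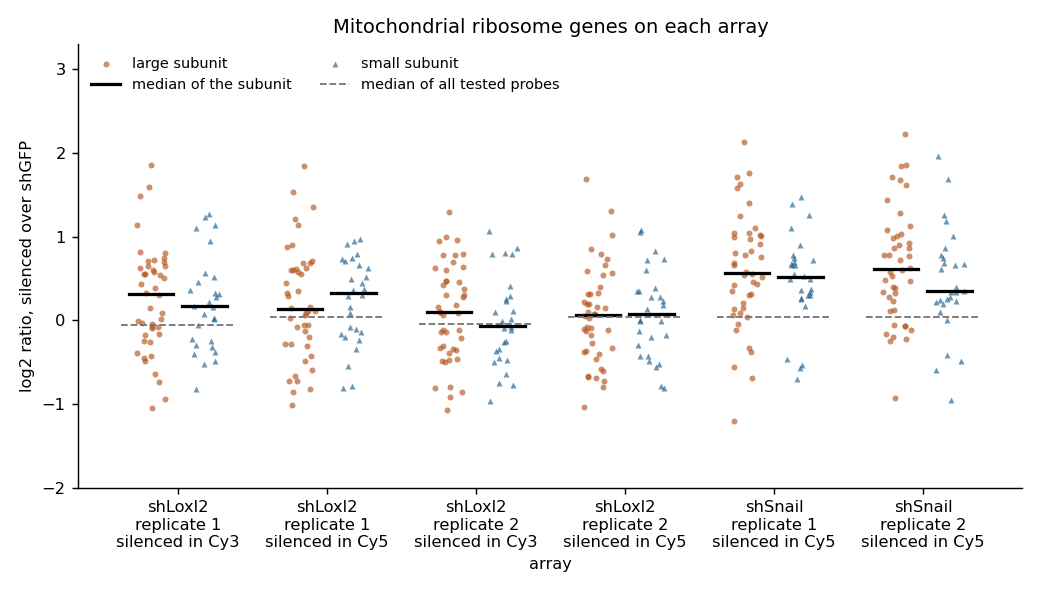
Log2 ratio of silenced over shGFP RNA (vertical axis) for the 72 tested members on each of the 6 arrays (horizontal axis), before any dye correction; points are genes, black bars subunit medians and dashed lines medians of all tested probes. The medians of all members lay between 0.04 and 0.22 on the 4 shLoxl2 arrays and at 0.55 and 0.56 on the shSnail arrays.

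Counted by array, 25 members (34.7%) were above 0 on all 4 shLoxl2 arrays and 16 (22.2%) below 0 on all 4. Of all tested probes, 13.9% and 13.1% did so. The median over members was 0.20 and 0.22 on the arrays of replicate 1 and 0.04 and 0.06 on those of replicate 2. Without replicate 2 the fitted median over members was 0.187 in place of 0.075.

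The second comparison asks how the members differed in shSnail cells from shGFP cells. Here 37 of the 72 members rose, 2 fell and 33 did not pass, while 8.81% of all tested probes rose and 12.6% fell. The median log2 fold change was 0.61 over the members and -0.04 over all probes. In the large subunit 26 of 44 rose and 1 fell, with a median of 0.71, and in the small subunit 11 of 28 rose and 1 fell, with a median of 0.36. Both shSnail arrays had the silenced RNA in Cy5. The part of each probe's ratio that stays when the dyes are swapped, called its dye effect, was therefore removed. It was taken from the dye-swapped shLoxl2 arrays. The spread in this test was pooled over the shSnail values and the shLoxl2 values, those for the dye effect included. The SE and p are thus not those of the shSnail samples alone.

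Mrpl34 led in shSnail cells too. Its probe (chromosome 8, 74394616 to 74394675, mm8) had intensities of 3133 and 3682 in the shSnail channels, against 718 and 787 in the shGFP channels. The log2 ratios of 2.12 and 2.23 were both above all 4 of its shLoxl2 ratios, and its dye effect was 0.00. The fitted change was 2.18 (SE 0.22, n = 2, limma adjusted p = 0.00192), or 4.52-fold higher.

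Mrpl11 (chromosome 19, 4964880 to 4964939, mm8), which has a bacterial counterpart in the region where translation factors bind, had intensities of 5698 and 6669 in the shSnail channels, against 1741 and 1846 in the shGFP channels. Its log2 ratios were 1.71 and 1.85, and its change was 1.83 (SE 0.14, limma adjusted p = 0.00127), or 3.55-fold higher. Mrpl55, of the mitochondrial lineage, had ratios of 1.63 and 1.67 and a change of 1.69 (SE 0.16, limma adjusted p = 0.00161). Mrpl22, which lines the exit tunnel, rose by 1.53 and Mrpl20 by 1.44. The other 21 rises of the large subunit lay between 0.65 and 1.40, with Mrpl21 as the highest and Mrpl3 as the lowest. They include Mrpl47, which was not well above background in the shGFP channel of either shSnail array, so no fold is given for it.

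Of the small subunit, Mrps21 (chromosome 3, 95955958 to 95956017, mm8) rose most. Its log2 ratios were 1.39 and 1.97, so the 2 arrays differed more than for Mrpl34, and its change was 1.70 (SE 0.22, limma adjusted p = 0.00425). Mrps28, with ratios of 1.26 and 1.69, rose by 1.46 (SE 0.17, limma adjusted p = 0.00344). Mrps33 rose by 1.16, Mrps36 by 1.13 and Mrps12 by 0.88, and the other 6 rises, in Mrps11, Mrps16, Mrps17, Mrps18c, Mrps22 and Mrps35, lay between 0.58 and 0.88. Mrps18a and Mrps30, which despite their names sit in the large subunit of the mammalian ribosome, did not pass, at 0.28 and 0.32, and were at -0.16 and -0.19 with median centring of each array in place of loess.

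The 2 falls were Mrpl50 and Mrps5. Mrpl50 had intensities of 866 and 843 in the shSnail channels, against 1986 and 1610 in the shGFP channels. Its change was -1.16 (SE 0.16, limma adjusted p = 0.0046). Mrps5, which has a bacterial counterpart, had log2 ratios of -0.70 and -0.95 on the shSnail arrays and a change of -0.73 (SE 0.15, limma adjusted p = 0.0175).

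**Figure D2:**
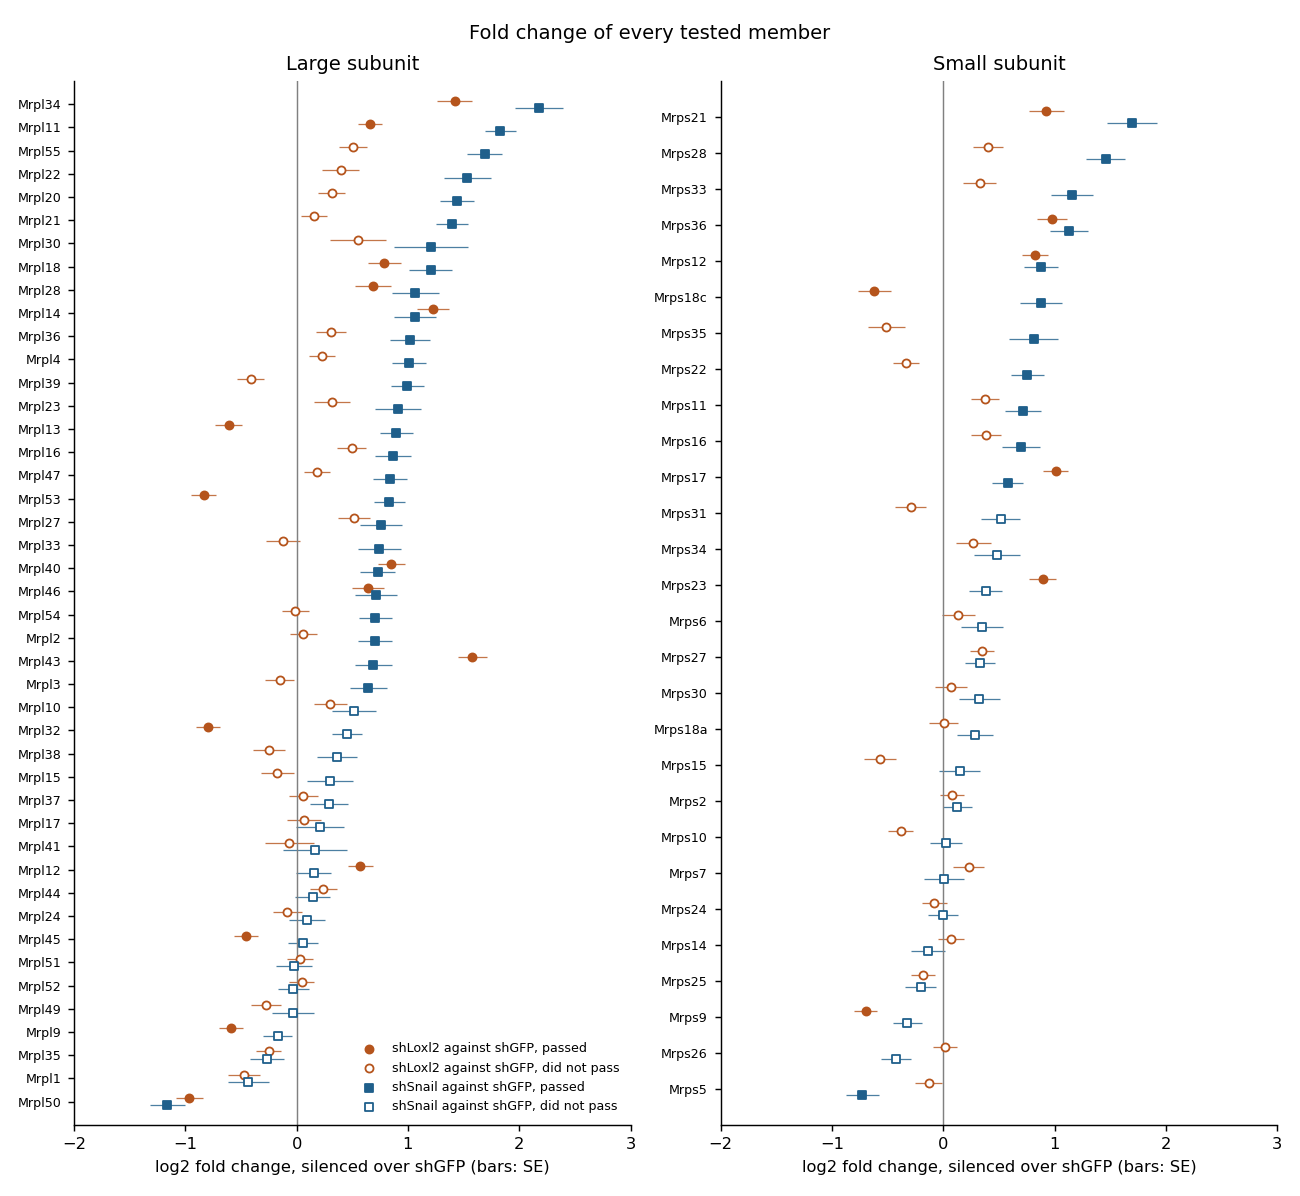
Log2 fold change over shGFP (horizontal axis) of every tested member, circles for shLoxl2 and squares for shSnail, filled where the test was passed, with bars of 1 SE; rows are genes, ordered by the shSnail value within each subunit. Mrpl34 stands at the top of the large subunit with 1.42 in shLoxl2 and 2.18 in shSnail, and Mrpl50 at the bottom with -0.96 and -1.16.

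Large-subunit members with a bacterial counterpart had 19 rises among 28. Their median was 0.85. The 16 large-subunit members of the mitochondrial lineage had 7 rises and 1 fall, with a median of 0.33. In the small subunit the order of the medians was the other way. The median was 0.28 over 17 members with a bacterial counterpart (7 rises, 1 fall) and 0.48 over the 11 without (4 rises). The small-subunit groups go by gene name and together include Mrps18a, Mrps30 and Mrps36, which are placed elsewhere above. The 0.28 is the value of Mrps18a. Among all tested probes, 8.81% rose and 12.6% fell. Median centring in place of loess, described below, gave lower medians for both subunits, and this split was not made there. The differences between members with and without a counterpart were not tested. In shLoxl2 cells the large-subunit members with a counterpart had 6 rises and 3 falls, and those without had 3 of each. There 8.08% of all tested probes rose and 5.85% fell.

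The treatment of the dye effect changed the number of rises and of falls. With no correction 41 members rose and 5 fell, while 13.1% of all probes rose and 18.4% fell. With the dye effect scaled by its slope on the shSnail arrays, 0.452, 40 rose and 5 fell, against 8.96% and 14.2% of all probes. Both treatments gave 13 rises and 4 falls in the small subunit, and 6 rises and 2 falls among its 11 members without a bacterial counterpart. All 37 rises and both falls of the fit were called in the same direction under each treatment. The members' dye effects had a median of -0.01 and ran from -0.58 to 0.65. They were estimated on the shLoxl2 arrays, which, per the file headers, were scanned on other days than the shSnail arrays. The image feature extraction protocol differed too. Whether the dye effect was equal across this batch was not tested. As measured, 58 members (80.6%) were above 0 on both shSnail arrays and 10 (13.9%) below 0 on both, while 45% and 38.2% of all tested probes were so.

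The normalization within each array changed the result more. With median centring of each array in place of loess, which follows signal strength, 18 members rose (25%) and 6 fell (8.33%), while 23.6% of all probes rose and 20.5% fell, so the share of rises was near that of all probes. The members' median was 0.25, against 0.10 over all probes. The large-subunit median was then 0.39 and that of the small subunit 0.02, below that of all probes. The members' median was 0.62 and 0.61 without shLoxl2 replicate 1 and 2, and 0.57 and 0.55 without shSnail replicate 1 and 2. Fewer members and fewer of all probes passed in each of these fits. Where a shSnail replicate was left out, the lone shSnail array was assumed to vary like the others.

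**Figure D3:**
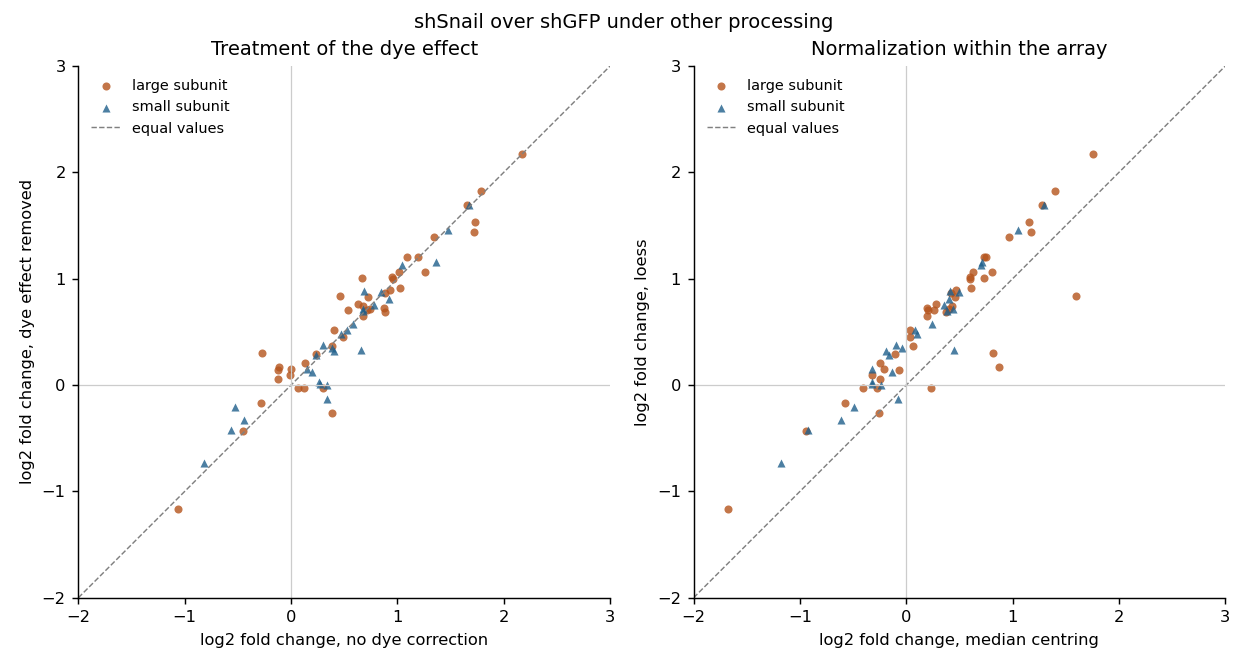
Log2 fold change of shSnail over shGFP for the 72 tested members, with the dye effect removed against no dye correction (left) and with loess against median centring (right); the dashed line marks equal values. The members' median was 0.61 with the dye effect removed and 0.56 without the correction, and it was 0.25 with median centring.

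Both comparisons above share the shGFP RNA, so the values are set side by side only. Among all tested probes, 8.08% rose and 5.85% fell in shLoxl2 cells, and 8.81% rose and 12.6% fell in shSnail cells. The overlap of calls was not counted over all probes, so that of the members cannot be set against it. By the calls, 12 members rose in both silenced lines: Mrpl11, Mrpl14, Mrpl18, Mrpl28, Mrpl34, Mrpl40, Mrpl43, Mrpl46, Mrps12, Mrps17, Mrps21 and Mrps36. Mrpl50 fell in both. Mrpl13, Mrpl53 and Mrps18c fell in shLoxl2 cells and rose in shSnail cells. Another 22 members rose in shSnail cells without passing in shLoxl2 cells, and Mrpl12 and Mrps23 rose in shLoxl2 cells without passing in shSnail cells. In neither comparison did 27 members pass, 13 of the large and 14 of the small subunit, with values from -0.57 to 0.35 in shLoxl2 and from -0.43 to 0.52 in shSnail.

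**Figure D4:**
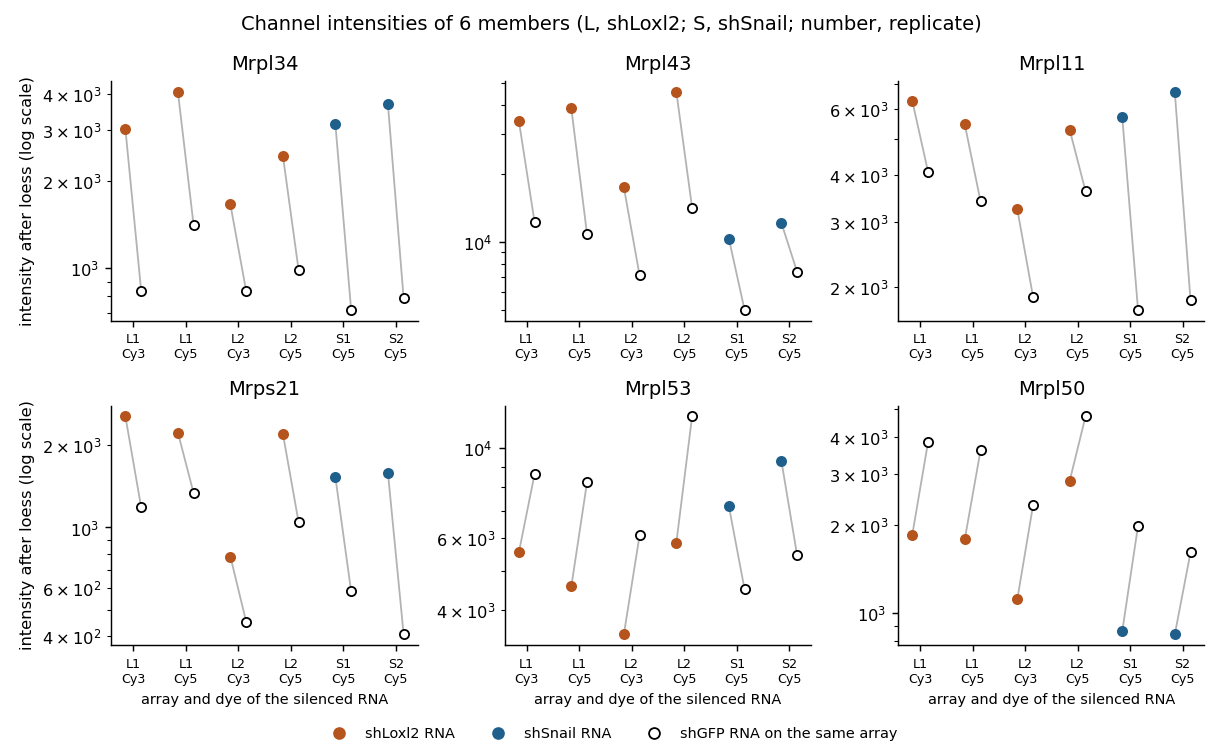
Intensity after loess (vertical axis, log scale) of 6 members on each array (horizontal axis), filled for the silenced RNA and open for the shGFP RNA of the same array, joined by a line. Mrpl34, Mrpl43, Mrpl11 and Mrps21 have the silenced channel above shGFP on all 6 arrays, Mrpl50 has it below on all 6, and Mrpl53 has it below on the 4 shLoxl2 arrays and above on the 2 shSnail arrays.

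In the third comparison shSnail cells were set against shLoxl2 cells by way of the 4 arrays whose silenced RNA carried Cy5. The dye effect was taken as equal on all 4. Relative to shLoxl2 cells, 15 members were higher in shSnail cells, 1 was lower and 56 did not pass, while 4.24% of all tested probes were higher and 8.56% lower. The median was 0.36 over the members and -0.04 over all probes. Of the large subunit 11 of 44 were higher and 1 lower, and of the small subunit 4 of 28 were higher. When the dye effect was instead scaled by its slope on the shSnail arrays, 0.452, 18 members were higher and 2 lower. Of all probes 4.6% were then higher and 10.2% lower. The sign changed for 6 members, none of which had passed.

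Mrpl53 (chromosome 6, 83075381 to 83075440, mm8) differed most. Its log2 ratios to shGFP were 0.68 and 0.77 in shSnail, against -0.85 and -1.03 in shLoxl2, with no overlap. The difference was 1.66 (SE 0.16, limma adjusted p = 0.0164), or 3.17-fold. Mrpl13 (chromosome 15, 55364323 to 55364382, mm8), which has a bacterial counterpart, had ratios of 0.99 and 0.86 in shSnail, against -0.48 and -0.67 in shLoxl2. Its difference was 1.50 (SE 0.16, limma adjusted p = 0.017). The values of these 2 members lay on opposite sides of 0 in the silenced lines.

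Mrps18c (chromosome 5, 101044304 to 101044665, mm8), likewise, had ratios of 0.67 and 1.01 in shSnail, against -0.79 and -0.52 in shLoxl2, a difference of 1.50 (SE 0.20, limma adjusted p = 0.0187). Mrpl39 differed by 1.41, Mrpl32 by 1.25 and Mrpl21 by 1.24. In the small subunit Mrps35 differed by 1.32, Mrps22 by 1.09 and Mrps28 by 1.06. The other 6 members that were higher in shSnail cells, Mrpl4, Mrpl11, Mrpl20, Mrpl22, Mrpl34 and Mrpl55, lay between 0.76 and 1.18. Mrpl43 was the member that was lower, with ratios of 1.04 and 0.72 in shSnail, against 1.84 and 1.69 in shLoxl2, and a difference of -0.89 (SE 0.19, limma adjusted p = 0.0419).

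Both shSnail ratios lay above both shLoxl2 ratios for 41 members (56.9%) and below both for 7 (9.72%). Of all tested probes 28.2% and 34.0% did so. The shSnail and shLoxl2 arrays were scanned on different days with different image feature extraction protocols per the file headers, so this batch and the group cannot be told apart here. With shSnail replicate 1 or replicate 2 left out, the members' median was 0.37 and 0.39, against -0.03 and -0.05 over all probes. Fewer members and fewer of all probes passed there. The lone shSnail array was assumed to vary like the others. With median centring 15 members were higher (20.8%) and 7 lower (9.72%), while 25.4% of all probes were higher and 22.1% lower, so the members' share of higher values was below that of all probes. The members' median was 0.04, below the 0.12 of all probes, with the small subunit at -0.08.

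**Figure D5:**
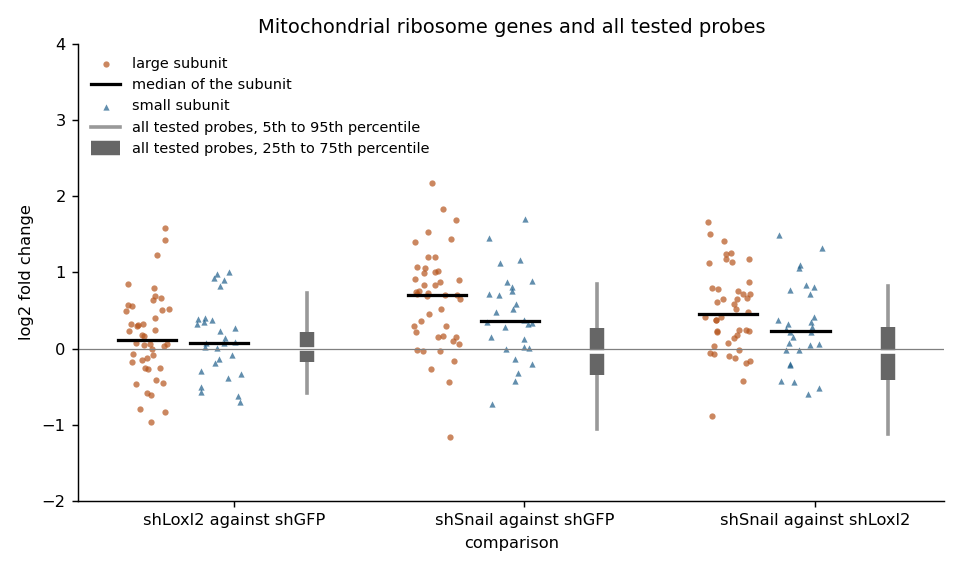
Log2 fold change (vertical axis) of the large-subunit and small-subunit members in the 3 comparisons (horizontal axis), with black bars for subunit medians. Grey bars show the quartiles (thick) and a wider percentile range (thin) of all tested probes, not their full range, with a white line at their median. The subunit medians were 0.11 and 0.08 in shLoxl2, 0.71 and 0.36 in shSnail, and 0.45 and 0.23 in shSnail against shLoxl2.

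Other genes of mitochondrial translation were counted from lists. For these counts, the shares of all tested probes were 8.08% up and 5.85% down in shLoxl2 cells, and 8.81% up and 12.6% down in shSnail cells. Differences of the lists from these shares were not tested. Of 7 mitochondrial ribosome proteins under other names, 1 rose in shLoxl2 cells, Gadd45gip1 at 1.0 (adjusted p = 0.00863), and 3 rose in shSnail cells. There Ict1, a release factor built into the large subunit and now named Mrpl58, rose by 1.50 (SE 0.17, limma adjusted p = 0.00264), and Gadd45gip1 by 0.78. Mrp63, now Mrpl57, was at 0.92 (limma adjusted p = 0.0237) after removal of the dye effect but at -1.72 with no dye correction, and its shSnail channel was well above background on 1 of 2 arrays. D10Ertd322e, which RefSeq now names Mrpl42, did not pass, at 0.00 in shLoxl2 and 0.42 in shSnail.

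Of 16 genes of mitochondrial ribosome assembly and ribosomal RNA modification, 2 rose in shLoxl2 cells, the methyltransferase Rnmtl1 at 0.76 and the GTPase Gtpbp5 at 0.63. In shSnail cells 1 rose, the helicase Ddx28 at 0.67, and 2 fell, Mterfd1 at -1.13 and the methyltransferase Mrm1 at -0.81, which was well above background on 1 of the 2 arrays. Of 12 translation factors, 3 rose in shLoxl2 cells: Tufm, the elongation factor that brings in transfer RNA, at 1.02, Lrpprc at 0.68 and the release factor Mtrf1l at 0.60. In shSnail cells 2 fell, the initiation factor Mtif2 at -1.08 and Mtrf1l at -0.89. The median over translation factors was 0.16 in shLoxl2 and 0.09 in shSnail. The shSnail median was -0.39 with 5 falls under median centring, and 4 fell and 1 rose with no dye correction. Among all probes, 20.5% fell with median centring, and 18.4% fell and 13.1% rose with no dye correction.

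Of 15 genes listed for the loading of mitochondrial transfer RNAs, 2 rose in shLoxl2 cells, the synthetase Fars2 at 0.83 and Pet112l at 0.73. Pet112l, now named Gatb, and Qrsl1 encode subunits of an amidotransferase, and the others are named as aminoacyl-tRNA synthetases. RefSeq now names the transcript of the Hars2 probe Dtd1 and that of the Vars2 probe Vars, and neither passed. In shSnail cells 3 passed upward, Fars2 at 1.14, Yars2 at 0.72 and Wars2, whose probe was not well above background on the shSnail arrays in the shSnail or the shGFP channel and turned in direction with no dye correction. Of 11 genes of mitochondrial DNA transcription and replication, Peo1 rose at 0.51 in shLoxl2 cells, well above background on 2 of 4 arrays in either channel, Pnpt1 at -1.60 and Polg2 at -0.45 fell there, each well above background in 3 of 4 shLoxl2 channels, and Supv3l1 fell at -1.11 in shSnail cells. The log2 ratios of Pnpt1 were -3.57, -1.05, -1.01 and -0.76 on the 4 shLoxl2 arrays, so 1 array of replicate 1 lay far below the others, and its change was -0.88 without replicate 1. Of 11 nuclear regulators, Gabpb1, a subunit of GABP, fell in both lines, at -1.69 (SE 0.11, limma adjusted p = 0.00143) in shLoxl2 and at -1.82 (SE 0.13, limma adjusted p = 0.00127) in shSnail. Esrra, a nuclear receptor of mitochondrial genes, passed at 0.56 in shSnail cells (limma adjusted p = 0.0495), but not with no dye correction, where it was at 0.31 and 4 of the regulators fell in place of 1. With the scaled dye effect 4 fell as well, and with median centring 6 fell. Among all probes, 18.4% fell with no dye correction, 14.2% with the scaled dye effect and 20.5% with median centring.

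Set beside the cytosolic ribosome and respiratory complex I, the median of the members lay between theirs in shSnail cells. Complex I, the NADH dehydrogenase of the respiratory chain, had 25 rises among 34, with a median of 0.91, and 28 rises with no dye correction. Ndufa1 at 1.63, Ndufb2 at 1.60 and Ndufc2 at 1.54 had its smallest p-values. The cytosolic ribosome had 19 rises and 1 fall of 71 with a median of 0.47, but 15 rises and 19 falls with a median of 0.01 with no dye correction. Of its 71 probes, 42 were saturated in 1 or more channels of the shSnail arrays, which limits their ratios, and no complex I probe or member was. The 29 never saturated there had 9 rises and 1 fall with a median of 0.39. In shLoxl2 cells complex I had 1 rise and 5 falls, and the cytosolic ribosome 5 rises and 2 falls. In shSnail against shLoxl2, 21 complex I genes and 5 cytosolic ribosome genes were higher in shSnail cells. With median centring the shSnail medians were 0.25 over the members, 0.32 over the cytosolic ribosome and 0.53 over complex I, so the order of the first pair turned. Among all tested probes, 8.81% rose and 12.6% fell in shSnail cells, and 13.1% and 18.4% with no dye correction. In shLoxl2 cells 8.08% rose and 5.85% fell, and 4.24% were higher in shSnail than in shLoxl2 cells. Differences between the families were not tested.

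Many members share a promoter region with another gene. Of the 65 members with a RefSeq promoter, 20 (30.8%) had a protein-coding gene on the other strand whose start lay at most 500 bases away, against 7.53% of 17492 coding genes. Mrpl46 and Mrps11 are such a pair, with starts 42 bases apart, and both rose in shSnail cells, at 0.71 and 0.72. Mrpl47 and the complex I gene Ndufb5, 308 bases apart, both passed upward there, Ndufb5 at 0.84. Of 11 tested partners outside the family whose member rose in shSnail cells, 2 rose, Ndufb5 and Klc4. The median of all 11 was -0.14, and 8.81% of all tested probes rose in shSnail cells. Mrpl43 and its partner Twnk, the mitochondrial DNA helicase listed as Peo1 on the array, start 116 bases apart. In shLoxl2 cells they were at 1.58 and 0.51, both past the threshold, and in shSnail cells Mrpl43 rose by 0.69 while Twnk was not well above background. Mrpl50, which fell in both lines, starts 93 bases from Zfp189, which passed in neither and was at 0.20 in shLoxl2, well above background there on 2 of 4 arrays in either channel.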

How the data were processed

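RNA of shLoxl2, shSnail and shGFP cells was read on 6 Agilent 2-colour arrays. The deposited intensity values of both channels came from Agilent's Feature Extraction software. The file headers give its version as 9.5.1.1, the submitters' processing notes as 6.1.1. The deposited log10 ratio of Cy5 over Cy3 came from the same software, per the file headers, and the authors' value table holds it rounded to within 0.006. Its column for shSnail replicate 2 matched the scanner file of replicate 1, so the table served only as an alternative with 1 shSnail array. Intensities were corrected by normexp (offset 50) and normalized by loess in limma 3.58.1 (R 4.3.3), with 736 control spots and outlier spots at weight 0, and 21318 spots were averaged to 20868 probes. A probe was kept if 2 or more arrays had it well above background in either channel, and the 19752 kept were tested with lmFit and eBayes and Benjamini-Hochberg adjustment over them all at 0.05, so a change "passed" below that. Dye-swapped shLoxl2 arrays were averaged with the sign turned. Both tests against shGFP weight an averaged pair and a single shSnail array equally. Fits were run on simulated data in which every array carried the same dye effect per probe. That check could therefore not test this assumption for the shSnail arrays. Depth is not known for arrays, and their small number limits precision. Up to 5 rises and 5 falls per subunit and comparison with 1 direction on every array were named, with 3 genes of each other list by p. The members and lists were chosen with earlier results of these data known. RefSeq accessions matched 68 member names, and probe coordinates are in mm8.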

Additional observations from a re-analysis of the deposited data

How the results depend on the processing

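No member called in a comparison changed direction in it under any alternative run, though calls were lost in some. Members that had not passed did turn: with median centring 4 in shLoxl2, 15 in shSnail and 24 in shSnail against shLoxl2, and with no dye correction 12 in shSnail. The calls numbered 22, 39 and 16 members in shLoxl2, shSnail and shSnail against shLoxl2. With a normexp offset of 10 there were 13, 30 and 8, with the software's own log ratios 3, 25 and 10, and with median centring 20, 24 and 22. With the deposited value table limma called 0 in each, with 20, 34 and 12 members at an unadjusted p below 0.05, and it called 0 probes in all. In shSnail against shLoxl2 there were 27 calls with no background subtraction, where 5.22% of all probes were higher and 11.1% lower. The filter for both channels on all arrays kept 66 members and gave 29 calls. With it 37.9% of members were higher and 6.06% lower, against 13.2% and 22.7% of all probes. Leaving out 1 replicate gave 13 to 21 calls in shLoxl2, 17 to 24 in shSnail and 0 to 23 in shSnail against shLoxl2, with medians from 0.0525 to 0.187, 0.547 to 0.619 and 0.293 to 0.44.

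The shSnail median of 0.61 was 0.453 with no background subtraction, 0.667 with offset 10, 0.249 with median centring, 0.703 with the software's ratios, 0.667 with the value table, 0.645 with no filter, 0.696 with the strict filter and 0.558 with no dye correction. The software's ratios put the median of all probes at -0.28, so relative to it the members stood at 0.98. In shSnail against shLoxl2 the median was 0.24 with no background subtraction and 0.0398 with median centring. Over all probes the calls numbered 2751, 4226 and 2527. Median centring gave 8721 in shSnail and 9379 in the third comparison, an offset of 10 gave 1510 in the first and 1029 in the third, and the software's ratios gave 776 in shLoxl2 cells. The 2 Cy5 arrays alone gave 7636 and the 2 Cy3 arrays alone 6712 in shLoxl2. Leaving out 1 replicate gave 1747 to 2806, 1585 to 3173 and 39 to 4308. The cause was not tested.

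A replicate block was tried because the numbers are shared, in shSnail against shLoxl2. It called 18 members in place of 16. Deviations of same-numbered arrays correlated at 0.208, and nothing in the labels pairs them.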
